A study of Homo sapiens with 4 samples.

Results

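The NF-κB genes described here are 10 of the 47251 genes in the gene table, chosen by name: RELA, RELB, NFKB1 and NFKB2 as subunits of NF-κB, NFKBIA, NFKBIE, TNFAIP3 and BIRC3 as inhibitors and feedback regulators, and CXCL1 and ICAM1 as inflammatory outputs. RNA was sequenced from AGS, a human gastric adenocarcinoma cell line, after silencing of MFAP2, which encodes a glycoprotein of extracellular microfibrils. The sh-MFAP2 group (2 libraries) carried a short hairpin RNA against MFAP2 and the control group (2 libraries) carried a scrambled hairpin. In the paper's methods, either hairpin was brought in by lentivirus and the infected cells were selected with puromycin. The sample titles name 1 hairpin, although a further label numbers the sh-MFAP2 libraries sh1 and sh2. The question was whether the NF-κB arm of the inflammatory response moved with the interferon-stimulated genes of the same libraries.

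NF-κB is a family of dimeric transcription factors that IκB proteins hold in the cytoplasm. In the canonical route, receptors for TNF, IL-1 or microbial products activate the IKK kinases, IκB is degraded, and dimers of RELA with the NFKB1 product p50 enter the nucleus. In the non-canonical route, the NFKB2 precursor p100 is processed to p52, which pairs with RELB. Active NF-κB raises the transcription of its own inhibitors, so NFKBIA (IκBα), NFKBIE (IκBε), TNFAIP3 (the ubiquitin-editing enzyme A20) and BIRC3 (the ubiquitin ligase cIAP2) serve as readouts of its activity as well as brakes on it. Most of the control of RELA is on protein location and modification, which RNA levels do not measure.

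The promoter sequences show which of the 10 genes carry a κB element close to the start site. RefSeq promoter windows (GRCh38.p14, 250 bases before to 50 after the start) were at hand for 8 genes, RELB and NFKBIE being the others. A match to the κB consensus, searched on both strands, was found in 5 of these 8 windows (62.5%), against 10.8% of all 27305 promoters. The 10 genes were chosen as NF-κB genes, several of them as its targets, so a high share was built into the choice. In the gene lists described below the share was 12.1% for the NF-κB pathway, 50% for other NF-κB targets, 80% for shared targets and 16.7% for the interferon response. The matches printed below carry the κB letters in capitals, 5′ to 3′ on the strand of the gene.
NFKB1, chr4:102501300-102501329, plus strand: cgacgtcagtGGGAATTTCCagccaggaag
NFKBIA, chr14:35404811-35404840, minus strand: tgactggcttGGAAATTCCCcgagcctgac
TNFAIP3, chr6:137867182-137867211, plus strand: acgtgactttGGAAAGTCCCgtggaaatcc
TNFAIP3, chr6:137867194-137867223, plus strand: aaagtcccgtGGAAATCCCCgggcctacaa
BIRC3, chr11:102317275-102317304, plus strand: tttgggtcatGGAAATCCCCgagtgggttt
BIRC3, chr11:102317339-102317368, plus strand: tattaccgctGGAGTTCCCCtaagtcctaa
CXCL1, chr4:73869304-73869333, plus strand: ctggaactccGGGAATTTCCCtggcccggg

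The capitals in CXCL1 cover overlapping matches on both strands, and the TNFAIP3 windows overlap because its matches lie side by side. RELA, NFKB2 and ICAM1 held no match to these letters in this window. The interferon-stimulated response element, searched as TTTC, any pair of bases (NN) and TTTC on both strands, was found in 1 of the 8 windows, that of RELA, and in 3.65% of all promoters. It is shown with one promoter each from the NF-κB target list and the interferon list, the κB element of the NF-κB target SDC4 and the overlapping response elements of the interferon-stimulated gene ISG15. These are examples, and the matches did not sort cleanly by list. Of the other genes named below, RBCK1 of the pathway list held a response element. TAP1 of the shared list and BST2 of the interferon list held matches of both kinds. None of the promoters printed here held both a κB match and a response element, so an overlap could not arise in them. The RELA match lies at position -237 from the RefSeq start, and further upstream of the GENCODE start of RELA, whose coordinates are given below.
RELA, chr11:65664075-65664104, minus strand: agccactggaGAAACTGAAAtgagtgggcg
SDC4, chr20:45348502-45348531, minus strand: cgcttccactGGGGAATTCCgggcggggtg
ISG15, chr1:1013377-1013406, plus strand: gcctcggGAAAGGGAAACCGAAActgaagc

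Expression values were taken as FPKM, fragments scaled by length and library depth, although their unit is not named. Transcript values were scaled by transcript length and gene values by 1 fixed length per gene. From the steps between low values, the libraries held an estimated 54900000 to 75100000 reads. At this depth the 10 genes rested on an estimated 32.2 reads (CXCL1 in control replicate 1) to 4193 reads (ICAM1 in control replicate 2) in a library. MFAP2 itself had a value of 0 with the hairpin in both libraries and of 0.0116 and 0.0138 FPKM without it, an estimated 2 and 3 reads, which is too few to check the labels. The summed level of 6 epithelial markers was 1780 to 2008 FPKM, most of it KRT8 and KRT18. EPCAM, KRT8, KRT18 and KRT19 overlapped between the groups. CLDN7 was lower in sh-MFAP2 cells, at 26.0 and 34.2 FPKM against 46.1 and 48.2 FPKM. CLDN4 measured 47.1 and 0.0151 FPKM in sh-MFAP2 cells against 0.291 and 0.551 FPKM in controls. The leukocyte markers PTPRC, CD3E and ITGAM were at or near 0. CD68, a lysosomal glycoprotein, made up nearly all of the immune marker sum, which was 3.18 and 3.16 FPKM in sh-MFAP2 cells against 7.89 and 7.23 FPKM in controls. The fibroblast sum, nearly all COL1A1, was 2.34 and 2.09 FPKM in sh-MFAP2 cells against 4.37 and 4.94 FPKM in controls, the other fibroblast markers were at most 0.066 FPKM, and the endothelial sum was at most 0.038 FPKM. The part of these differences in the results below was not tested.

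The subunit genes were all transcribed, at 3.34 to 7.68 FPKM, and none passed the test between the groups. In bulk RNA, a change in the number of cells that transcribe a gene and a change in its RNA per cell cannot be told apart. RELA, the main transactivating subunit (chr11:65653596-65663094, minus strand, GRCh38), measured 3.68 and 5.69 FPKM in sh-MFAP2 cells against 4.05 and 5.90 FPKM in controls. Its low libraries were replicate 1 of both groups, so the gap within each group was wider than the gap between groups. On the log2(FPKM + 1) scale the difference, sh-MFAP2 minus control, was -0.08 with a standard error of 0.267 (95% interval -0.84 to 0.68, limma adjusted p = 0.910). RELB, the non-canonical subunit (chr19:45001430-45038198, plus strand), measured 4.74 and 3.34 FPKM in sh-MFAP2 cells against 3.48 and 3.43 FPKM in controls. Only sh-MFAP2 replicate 1 stood out, and without it the log2 difference went from 0.16 (SE 0.175, 95% interval -0.33 to 0.66, limma adjusted p = 0.694) to -0.04.

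NFKB1, which encodes p105 and p50 (chr4:102501329-102617302, plus strand), measured 6.72 and 5.74 FPKM in sh-MFAP2 cells against 6.64 and 7.68 FPKM in controls. The groups overlapped, with a log2 difference of -0.17 (SE 0.137, 95% interval -0.56 to 0.22, limma adjusted p = 0.607). NFKB2, which encodes p100 and p52 (chr10:102394110-102402529, plus strand), measured 6.66 and 5.71 FPKM in sh-MFAP2 cells against 4.80 and 5.03 FPKM in controls. Both sh-MFAP2 libraries lay above both controls, at 6.18 ± 0.674 against 4.91 ± 0.161 FPKM (mean ± SD, n = 2 each). NFKB2 was also the 1 gene of the 10 whose group difference exceeded the gap between replicates in both groups. Its log2 difference of 0.28 (SE 0.121, 95% interval -0.07 to 0.62) had the smallest p of the 10 genes, 0.0865 unadjusted and 0.440 after adjustment over all genes tested (limma).

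None of the feedback genes passed the test, and their differences had both signs. NFKBIA, the IκB gene that NF-κB re-induces most directly (chr14:35401511-35404749, minus strand), measured 11.2 and 11.6 FPKM in sh-MFAP2 cells against 10.8 and 8.31 FPKM in controls. Both sh-MFAP2 libraries lay above both controls, but control replicate 1 was close to them. The log2 difference was 0.24 (SE 0.158, 95% interval -0.21 to 0.69, limma adjusted p = 0.554), and it was 0.07 without control replicate 2. NFKBIE (chr6:44258166-44265788, minus strand) measured 4.03 and 3.09 FPKM in sh-MFAP2 cells against 3.04 and 3.30 FPKM in controls. The sh-MFAP2 libraries lay on either side of control replicate 2, and the difference of 0.12 (SE 0.149, 95% interval -0.30 to 0.54, limma adjusted p = 0.731) went to -0.03 without sh-MFAP2 replicate 1.

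TNFAIP3, whose product A20 shuts off signalling upstream of IKK (chr6:137867188-137883312, plus strand), was low, at 1.49 and 1.15 FPKM in sh-MFAP2 cells against 1.59 and 1.31 FPKM in controls. These values interleaved, with a log2 difference of -0.09 (SE 0.138, 95% interval -0.48 to 0.31, limma adjusted p = 0.800). BIRC3 (chr11:102317450-102339403, plus strand) measured 0.602 and 0.791 FPKM in sh-MFAP2 cells against 0.722 and 0.836 FPKM in controls. Its mean was under the 1 FPKM needed to enter the test, and in the fit without that filter, over 23806 genes, the difference was -0.07 (SE 0.115, limma adjusted p = 0.847). A20 and cIAP2 mRNA were therefore the low members of the feedback group in all 4 libraries, while IκBα mRNA was the high one. Without a single library the small differences of TNFAIP3 and BIRC3 also changed sign, to 0.02 without sh-MFAP2 replicate 2 for TNFAIP3 and to 0.01 without sh-MFAP2 replicate 1 for BIRC3.

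The outputs had opposite signs. CXCL1, a neutrophil-attracting chemokine (chr4:73869393-73871242, plus strand), measured 1.20 and 1.71 FPKM in sh-MFAP2 cells against 0.419 and 1.22 FPKM in controls. Control replicate 1 was the low library, and the other control lay between the sh-MFAP2 libraries. The log2 difference of 0.46 was the widest of the 10 genes and also the least precise (SE 0.278, 95% interval -0.33 to 1.25, limma adjusted p = 0.535), and it was 0.13 without control replicate 1. CXCL1 has close paralogues, so reads could have been shared with them in counting. ICAM1, the endothelial and epithelial ligand of leukocyte integrins (chr19:10270835-10286615, plus strand), measured 13.7 and 10.8 FPKM in sh-MFAP2 cells against 13.2 and 15.1 FPKM in controls. Those values overlapped, at 12.3 ± 2.03 against 14.2 ± 1.29 FPKM (mean ± SD, n = 2 each), with a log2 difference of -0.20 (SE 0.163, 95% interval -0.66 to 0.27, limma adjusted p = 0.619).

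**Figure D1:**
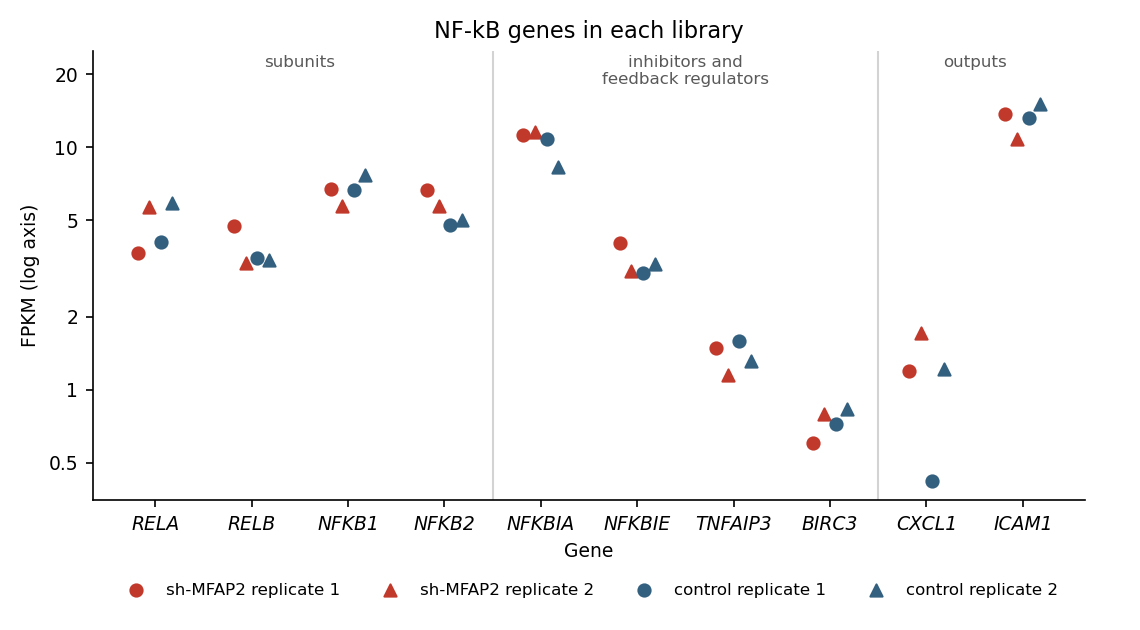
FPKM (log axis) of the 10 NF-κB genes in each library, with sh-MFAP2 in red, control in blue, circles for replicate 1 and triangles for replicate 2. Red and blue points are separate for NFKB2 and NFKBIA and interleave for the other 8 genes, and the single low point of CXCL1 is control replicate 1 at 0.419 FPKM.

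Scaled by 1 fixed length per gene, mRNA levels of the 10 genes ran from 0.738 FPKM for BIRC3 to 13.2 FPKM for ICAM1 as means of the 4 libraries. The descending order was ICAM1, NFKBIA, NFKB1, NFKB2, RELA, RELB, NFKBIE, TNFAIP3, CXCL1 and BIRC3. Library values of neighbours in this order overlapped except between NFKBIA and NFKB1 and between NFKBIE and TNFAIP3, which leaves a high pair, a middle group of 5 and a low group of 3. The order and these groups depend on the length used for each gene. That length was 5464 bases for RELA and 2373 for NFKBIA, where the longest listed transcripts have 3183 and 1558 bases. The ratio of the highest to the lowest library was 1.32 to 1.60 for 9 genes and 4.09 for CXCL1.

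Of the 10 genes, 9 entered the test and 0 were called at p under 0.01 and adjusted p under 0.05 (limma), against 0.273% of the 9873 genes tested (0.152% upward and 0.122% downward with sh-MFAP2). At an unadjusted p under 0.05 the count was also 0 of 9, against 12.3% of the genes tested. Both sh-MFAP2 libraries lay above both controls for 2 of the 10 genes and below them for 0, against 17.5% and 31.4% of the genes tested. Means were higher in sh-MFAP2 for 5 genes and lower for 5, and for 9 of the 10 the wider replicate gap exceeded the group difference. The median log2 difference over the 9 tested genes was 0.12, against -0.05 over all genes tested, and it was -0.03 without sh-MFAP2 replicate 1.

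The intervals set what the libraries could have shown. For 9 genes the 95% interval lay within 1 log2 unit of 0, and for CXCL1 it reached 1.25, so shifts up to the ends of these intervals cannot be told from 0 with these libraries. The scale itself limits a fall of the low genes. The control means in log2(FPKM + 1) were 0.829 for CXCL1 and 0.830 for BIRC3, so even a full loss could not have reached a fall of 1 unit. For low genes such as these and TNFAIP3, 1 unit is also a larger relative change in FPKM than for high genes. An exact two-sided permutation test on 2 against 2 libraries has 0.333 as its smallest p. The labels do not say that the replicates were separate cultures, so the p-values measure the spread between these libraries, which may be technical.

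**Figure D2:**
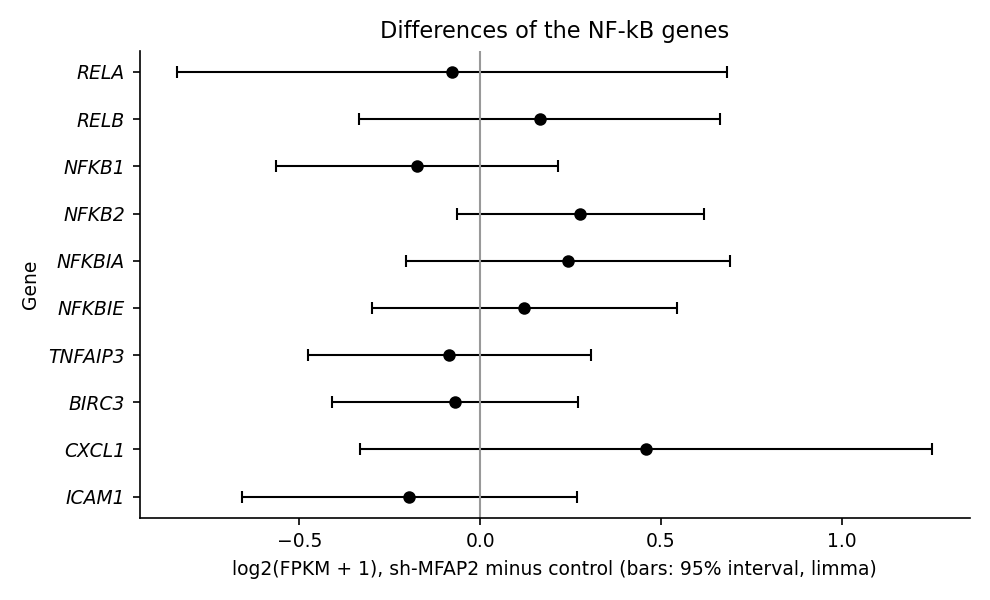
Difference in log2(FPKM + 1), sh-MFAP2 minus control, for the 10 genes, with points for the estimate and bars for the 95% interval from limma (BIRC3 from the fit without a filter). Every bar crosses 0, from NFKB2, whose bar starts at -0.07, to CXCL1, whose bar reaches 1.25.

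The rest of the pathway was read from a list of 64 genes, of which 44 entered the test. Of these, 0 were called, against 0.273% of all genes tested. At an unadjusted p under 0.05, 1 was higher in sh-MFAP2 and 1 lower, against 3.89% and 8.41% of all genes tested. Both silenced libraries lay above both controls for 10 genes and below for 13, against 17.5% and 31.4% of all genes tested. The median log2 difference was -0.03. RBCK1, which encodes HOIL-1 of the linear ubiquitin ligase complex that recruits IKK, measured 16.5 and 16.8 FPKM in sh-MFAP2 cells against 12.5 and 11.3 FPKM in controls. Its groups were well apart, with a log2 difference of 0.45 (SE 0.109, limma adjusted p = 0.349). TAB3, an adaptor that ties ubiquitin chains to the kinase TAK1, measured 1.89 and 1.88 FPKM in sh-MFAP2 cells against 3.24 and 2.99 FPKM in controls. This was a log2 difference of -0.51 (SE 0.102, limma adjusted p = 0.330) in the same family of activating steps, opposite in sign to RBCK1.

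By role, the 13 tested genes of the IKK complex and activating kinases had a median of -0.04, with 1 above and 5 below both controls. The 15 tested adaptors and ubiquitin ligases also had a median of -0.04, with 4 above and 5 below. Among the 4 other subunits and IκB proteins tested, 2 lay above both controls and 0 below. Over all genes tested the shares were 17.5% above and 31.4% below, and the roles were not tested against them. The 6 tested deubiquitinases and A20 partners had a median of -0.09 and the 6 tested receptors a median of 0.05. Of the 8 ligands, which include the cytokines that start canonical signalling, the highest value in any library was 0.095 FPKM and 2 were at 0 throughout, so the transcripts of the pathway's own triggers were at the edge of detection in both groups.

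Of 49 other NF-κB targets listed, 8 were at 0 in every library and 24 entered the test. Of these, 0 were called, against 0.273% of all genes tested. At an unadjusted p under 0.05, 2 were higher and 2 lower, which is 16.7% against 12.3% of all genes tested. Both sh-MFAP2 libraries lay above both controls for 8 and below for 4, against 17.5% and 31.4% of all genes tested, and the median log2 difference was 0.10. SDC4, the heparan sulphate proteoglycan syndecan-4 whose κB element is printed above, measured 117 and 104 FPKM in sh-MFAP2 cells against 30.0 and 37.6 FPKM in controls. It stood furthest apart in the list, at 3.27 times the control mean and a log2 difference of 1.69 (SE 0.165, limma adjusted p = 0.132). PI3, the secreted elastase inhibitor elafin, measured 3.57 and 2.33 FPKM in sh-MFAP2 cells against 1.70 and 1.39 FPKM in controls (log2 difference 0.62, SE 0.203, limma adjusted p = 0.398).

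The targets with lower values were F3 and PTGS2. F3, the coagulation initiator tissue factor, measured 3.03 and 3.56 FPKM in sh-MFAP2 cells against 5.10 and 5.01 FPKM in controls (log2 difference -0.50, SE 0.116, limma adjusted p = 0.346). PTGS2, the inducible prostaglandin synthase COX-2, measured 0.800 and 0.981 FPKM in sh-MFAP2 cells against 1.63 and 1.47 FPKM in controls (log2 difference -0.43, SE 0.115, limma adjusted p = 0.370). Both pairs of libraries were separate, in the direction opposite to SDC4 and PI3. By role, all 4 tested chemokines and cytokines, of 14 listed, lay above both controls (median 0.21). So did 4 of 6 tested adhesion, matrix and secreted products, of 14 listed (median 0.32). The 8 tested survival and feedback targets had 0 above and 2 below both controls (median -0.09), and the 6 tested remaining targets had 0 above and 2 below (median -0.17). The shares over all genes tested were 17.5% above and 31.4% below, and these small groups were not tested against them.

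A list of 6 genes that both NF-κB and interferon induce lay on the higher side. All 6 had a higher mean in sh-MFAP2, 4 had both libraries above both controls, and 3 had an unadjusted p under 0.05, with 0 called and a median of 0.30. Of the 9873 genes tested, 4151 had a higher mean in sh-MFAP2. The share above both controls was 17.5%, and 3.89% were higher at an unadjusted p under 0.05. CCL5, a T-cell chemokine, measured 2.34 and 2.12 FPKM in sh-MFAP2 cells against 1.36 and 1.50 FPKM in controls (log2 difference 0.41, SE 0.108, limma adjusted p = 0.370). PSMB9, a subunit of the immunoproteasome, measured 2.14 and 1.53 FPKM in sh-MFAP2 cells against 0.960 and 1.09 FPKM in controls (log2 difference 0.48, SE 0.154, limma adjusted p = 0.395). TAP1, which carries peptides to MHC class I, measured 17.9 and 14.2 FPKM in sh-MFAP2 cells against 10.0 and 11.9 FPKM in controls (log2 difference 0.51, SE 0.172, limma adjusted p = 0.399). For these 3 genes the groups did not overlap.

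The interferon response list, the arm with which the 10 genes are compared, held 48 genes. Of these, 39 were tested and 0 called, against 0.273% of all genes tested. At an unadjusted p under 0.05, 15 were higher in sh-MFAP2 and 1 lower, against 3.89% and 8.41% of all genes tested, and 0 and 0 of the 9 tested NF-κB genes. Both sh-MFAP2 libraries lay above both controls for 25 of the 39 and below for 1, against 17.5% and 31.4% of all genes tested, and the median log2 difference was 0.40. ISG15, a ubiquitin-like protein, measured 577 and 631 FPKM in sh-MFAP2 cells against 277 and 247 FPKM in controls. OASL measured 26.5 and 26.8 FPKM against 13.9 in both controls, and IRF7, the factor that amplifies interferon transcription, 21.3 and 19.7 FPKM against 11.3 and 12.1 FPKM. Their log2 differences were 1.20, 0.89 and 0.76, with limma adjusted p of 0.137, 0.145 and 0.238.

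IFIT5 measured 7.85 and 8.76 FPKM in sh-MFAP2 cells against 1.13 and 0.0531 FPKM in controls, so its log2 difference of 2.63 (SE 0.385, limma adjusted p = 0.238) rests on a control group that was close to 0 in 1 library. Its relatives IFIT1 and IFIT3, picked out after their values were seen, varied widely within each group. IFIT1 measured 58.9 and 3.43 FPKM in sh-MFAP2 cells against 35.8 and 3.30 FPKM in controls. For IFIT3 these values were 0.605 and 35.0 FPKM against 9.52 and 0.847 FPKM. IFITM1, which blocks viral entry, measured 246 and 279 FPKM against 155 and 157 FPKM (log2 difference 0.74, limma adjusted p = 0.270). BST2, the antiviral tether tetherin, went the other way, at 29.6 and 23.1 FPKM against 37.6 and 42.9 FPKM (log2 difference -0.60, limma adjusted p = 0.393). The difference between the lists was not tested, both lists come from the same 4 libraries, and the interferon pattern was known when the lists were drawn up.

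**Figure D3:**
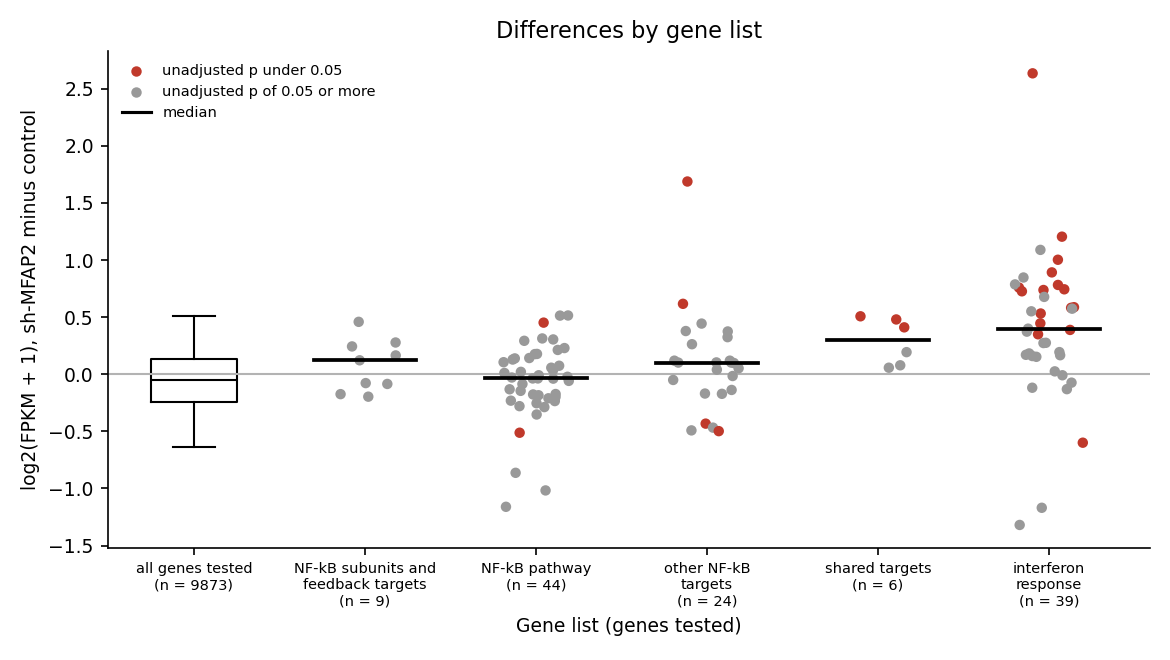
Difference in log2(FPKM + 1), sh-MFAP2 minus control, of the tested genes in each list (points, red for an unadjusted limma p under 0.05) with the list median (black line), beside all 9873 genes tested (box, quartiles and median; whiskers, the 5th and 95th percentiles). The NF-κB genes lie around 0 with no red point, whereas the interferon list has a median of 0.40 and 16 red points, 15 of them above 0.

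At the transcript level, 87 transcripts were listed for the 10 genes, and 18 of them, from all 10 genes, had a mean of at least 1 FPKM. None was called, as for all 22312 transcripts tested (0.0%), and 1 had an unadjusted p under 0.05, being lower in sh-MFAP2, against 7.64% of the transcripts tested (3.22% higher and 4.41% lower). Of the 18, 3 lay above both controls and 2 below, against 17.8% and 24.9% of those tested. How reads were divided among overlapping transcripts is an estimate of the authors' software, with an error that the tables do not give.

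For NFKB1, transcripts lay apart between the groups although the gene value overlapped. ENST00000226574 measured 5.46 and 4.92 FPKM in sh-MFAP2 cells against 2.0 and 3.76 FPKM in controls (log2 difference 0.71, SE 0.300, limma adjusted p = 0.677). ENST00000394820 measured 3.97 and 2.30 FPKM in sh-MFAP2 cells against 4.55 and 7.50 FPKM in controls (log2 difference -0.76, SE 0.354, limma adjusted p = 0.688). These protein-coding transcripts were separate between groups in opposite directions, and the first took 53.0% and 56.0% of the gene's value (FPKM times length) in sh-MFAP2 against 19.6% and 32.0% in control cells. ENST00000505458 measured 1.29 and 1.79 FPKM in sh-MFAP2 cells against 4.25 and 1.23 FPKM in controls, and thus overlapped.

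For NFKBIA, the main transcript ENST00000216797 measured 15.9 and 16.7 FPKM in sh-MFAP2 cells against 7.86 and 12.1 FPKM in controls (log2 difference 0.68, SE 0.264, limma adjusted p = 0.674). It took 92.8%, 94.8% and 95.8% of the gene's value in both sh-MFAP2 libraries and control replicate 2, but 47.9% in control replicate 1. That library instead had 21.4% in ENST00000557389 and 16.2% in retained-intron transcripts, against at most 2.52% of retained introns in the other libraries. The tested transcripts of NFKB2 were ENST00000189444, at 5.48 and 4.77 FPKM in sh-MFAP2 cells against 4.87 and 5.72 FPKM in controls, and ENST00000428099, at 3.16 and 1.67 FPKM in sh-MFAP2 cells against 1.48 and 1.02 FPKM in controls. The higher gene value of NFKB2 in sh-MFAP2 thus lay outside its main transcript, and ENST00000428099 differed by 0.57 (SE 0.317, limma adjusted p = 0.696). ENST00000369966, under the filter and picked out after its values were seen, took 6.69% and 18.9% of the NFKB2 value in sh-MFAP2 and 4.54% and 4.18% in control cells, so it also lay above both controls.

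RELA had the most mixed transcripts. ENST00000532999, protein-coding, was listed at 0 in both silenced libraries and at 2.93 and 1.64 FPKM in control cells, and was the 1 transcript under an unadjusted p of 0.05 (limma adjusted p = 0.389). ENST00000525693, also protein-coding, measured 2.85 and 5.18 FPKM in sh-MFAP2 cells against 1.56 and 5.80 FPKM in controls, and the retained-intron transcript ENST00000531484 measured 3.78 and 2.22 FPKM in sh-MFAP2 cells against 3.10 and 1.58 FPKM in controls. Retained-intron transcripts made up 45.4% and 19.6% of the RELA value in sh-MFAP2 and 38.3% and 15.6% in control cells, so their share was higher in replicate 1 of both groups, the libraries with the lower RELA level.

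TNFAIP3 had 1 tested transcript, ENST00000612899, at 1.53 and 1.10 FPKM in sh-MFAP2 cells against 1.16 and 0.641 FPKM in controls, which took 96.4% and 89.8% against 68.2% and 45.7% of the gene's value. Most of the remainder in the controls was ENST00000237289, picked out after its values were seen, which was listed at 0 in both silenced libraries and at 0.364 and 0.733 FPKM in control cells. Of the other 5 genes, 4 were steadier in their transcripts. ENST00000264832 held at least 99.3% of ICAM1, ENST00000263464 at least 99.0% of BIRC3 and ENST00000395761 at least 96.8% of CXCL1 in every library, and the 3 tested transcripts of NFKBIE each kept 26.1% to 39.7% of its value. RELB's main transcript ENST00000221452 measured 3.27 and 2.21 FPKM in sh-MFAP2 cells against 3.09 and 2.75 FPKM in controls, with overlapping groups as for the gene, but its share of the gene's value was 57.0% and 54.8% in sh-MFAP2 and 73.5% and 66.4% in control cells, so the shares did not overlap.

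**Figure D4:**
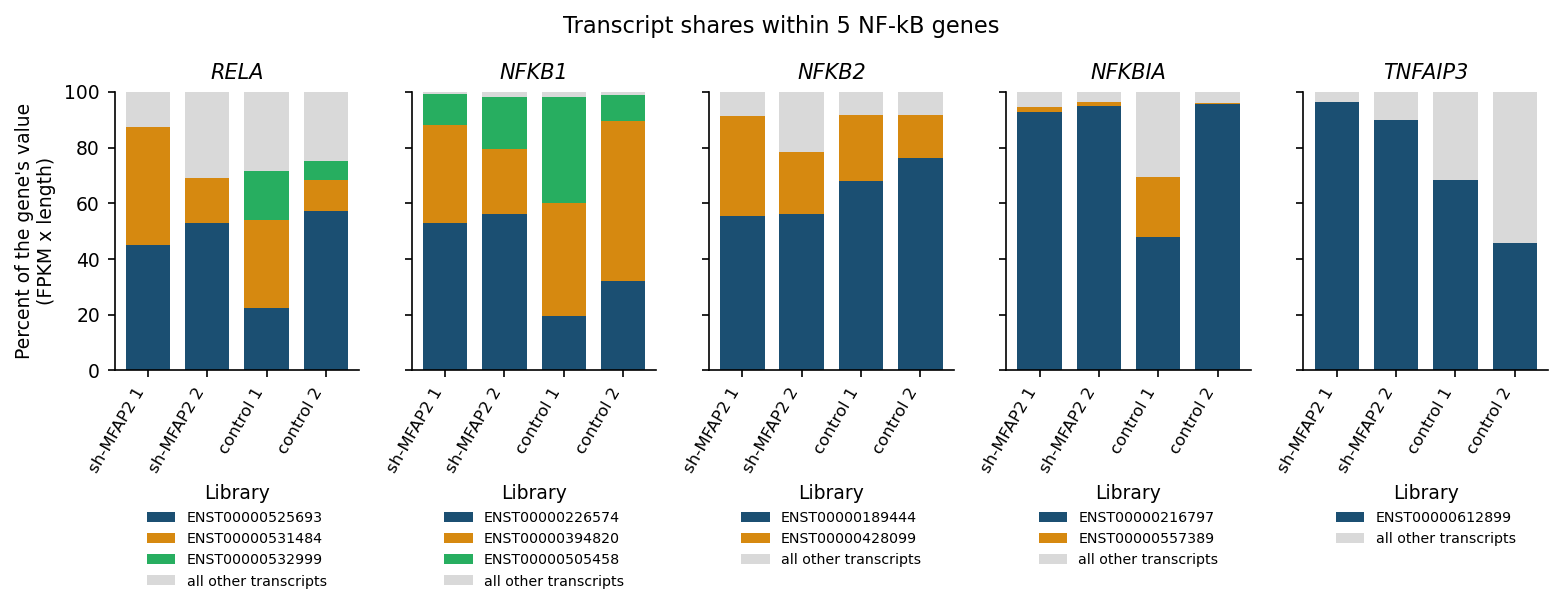
Share of the gene's value (percent, FPKM times transcript length) taken by each transcript with a mean of at least 1 FPKM in the 4 libraries, for 5 genes, with all other transcripts in grey. The NFKB1 transcript ENST00000226574 holds 53.0% and 56.0% in sh-MFAP2 against 19.6% and 32.0% in control cells, and control replicate 1 is set apart for NFKBIA, with 47.9% in ENST00000216797.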

How the data were processed

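The aligner, the counting program and its annotation are not given in the sources used here, and the labels name hg38. The authors deposited 1 table of genes and 1 of transcripts with a value per library, taken here as FPKM because transcript values times transcript lengths add up to the gene value times 1 fixed length per gene, although the tables do not name the unit. Columns were matched to samples by their labels, 2 sh-MFAP2 and 2 control libraries. Reads per library were estimated from the steps between low values: 65.3% to 67.0% of them lay within 0.05 of a whole step, where 10.0% would by even spread. They were not used as counts. 

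Genes and transcripts with a mean of at least 1 FPKM were fitted as log2(FPKM + 1) with limma 3.58.1 in R 4.3.3 (eBayes with trend, all 4 libraries, no covariate) and Benjamini-Hochberg adjustment over all genes or transcripts tested, two-sided. A pseudocount of 1 understates the change of low genes. Called means p under 0.01 and adjusted p under 0.05. The fits were tested on simulated data. Gene positions are those of GENCODE 29 (GRCh38), in which 92.5% of gene identifiers matched; promoters are from RefSeq (GRCh38.p14). RELA, TNFAIP3 and ICAM1 overlap genes on the opposite strand, and strandedness is not stated. The members and lists were chosen with earlier results of these data known. Named from the lists were the genes with an unadjusted p under 0.05, at most the 5 smallest in each direction and list, and from the 10 genes each transcript tested. Alternatives were another filter, pseudocount, scaling, variance model or threshold, the replicate number as a block, transcript sums as gene values, and leaving out each library.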

Additional observations from a re-analysis of the deposited data

How the results depend on the processing

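None of the 10 NF-κB genes or of the 15 genes named from the lists was called under any alternative that kept the thresholds on p and adjusted p. By unadjusted p under 0.05 alone, all 15 named genes pass, since they were named by it, and 0 of the 9 tested NF-κB genes do. Of the alternatives for the 10 genes, 105 kept the direction and 7 turned it. RELA became 0.0072 with quantile normalization and ran from -0.336 to 0.181 with a library left out. RELB then ran from -0.037 to 0.366, NFKBIE from -0.027 to 0.271, TNFAIP3 from -0.191 to 0.020 and BIRC3 from -0.150 to 0.011. All 173 alternatives for the named list genes kept the direction. CXCL1 has no value without sh-MFAP2 replicate 2, where its mean fell under the filter, and the 5 FPKM filter likewise left out the lower genes. A pseudocount of 0.1 took CXCL1 to 0.89, IFIT5 to 4.28, PSMB9 to 0.77 and PTGS2 to -0.74.

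The count of genes called, 27, fell to 6 with no filter, to 9 with the 5 FPKM filter and to 0 whichever library was left out. It was 1214 by unadjusted p under 0.05 and 46 by adjusted p under 0.1. The count of transcripts called, 0, was 1 with the 5 FPKM filter, 5 with a pseudocount of 0.1, 1704 by unadjusted p under 0.05 and 21 by adjusted p under 0.1. With the replicate number as a block 0 genes were called (722 at an unadjusted p under 0.05). Across genes, libraries with the same number did not deviate together (correlation of deviations -0.0572), although single genes such as RELA and IER3 followed the number in both groups. The labels do not say whether the numbers mark a batch, and the cause of the fall to 0 was not tested.

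The median log2 difference of the NF-κB genes, 0.12, was 0.026 with no filter and -0.027 to 0.147 with a library left out. That of the pathway list, -0.03, was 0.036 with median-of-ratios scaling and -0.136 to 0.028 with a library left out. That of the target list, 0.10, was 0.031 with no filter, 0.138 with quantile normalization, 0.151 with median-of-ratios scaling and 0.062 to 0.10 with a library left out. That of the interferon list, 0.40, was 0.446 with the 5 FPKM filter, 0.474 with a pseudocount of 0.1, 0.479 with quantile normalization, 0.447 with median-of-ratios scaling and 0.361 to 0.477 with a library left out. The cause of these shifts was not tested.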

Other observations

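IER3, an early-response gene on the NF-κB target list that was picked out after its values were seen, measured 85.4 and 4.37 FPKM in sh-MFAP2 cells against 72.5 and 6.98 FPKM in controls. Replicate 1 was high and replicate 2 low in both groups. Across all genes tested, libraries with the same replicate number did not deviate together (correlation of deviations -0.0572).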
